A study of Mus musculus with 3 samples.

Results

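The 6 genes described here, Slc27a5, Baat, Slc10a1, Slco1b2, Slco1a1 and Slco1a4, encode the last enzymes that conjugate bile acids and the carriers that take bile acids and other organic anions from portal blood into the hepatocyte. They are 6 of the 10698 genes named on the array by a single symbol. Their probes were found by gene symbol in the platform annotation, which gave 9 of the 16281 probes: 2 each for Slc10a1, Slco1b2 and Slco1a1, and 1 each for Slc27a5, Baat and Slco1a4. Of these 9 probes, 7 had a measured ratio on all 3 arrays. The study compared a commercial mouse liver total RNA with a commercial mouse spleen total RNA on 3 two-colour oligonucleotide arrays, after 1 round of cRNA amplification. Spleen was in the green dye (Cyanine-3) and liver in the red dye (Cyanine-5) each time, so dye and tissue cannot be told apart. The labels give no strain, sex, age, treatment or number of mice for either RNA. They do not say what was repeated between arrays, so every SD and p-value below reflects how far the arrays differ, possibly for technical reasons only.

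Bile acids are made from cholesterol in hepatocytes, joined to an amino acid such as taurine, and secreted into bile. Slc27a5 first makes the CoA thioester of a bile acid and Baat then transfers the acyl group to the amino acid. Most bile acids return from the gut in portal blood and are taken up again across the sinusoidal membrane, conjugated ones mainly by the sodium-dependent carrier Slc10a1 and unconjugated ones largely by sodium-independent Slco carriers. The spleen has no known part in this cycle.

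Each deposited value is the log2 ratio of the channels for 1 probe on 1 array. It was read as liver over spleen, a direction that is likely but that the labels do not state. The basis was marker genes that are not members. The tyrosine-degrading enzyme Hpd averaged 3.81 ± 0.22 (SD, n = 3 arrays) and the plasma glycoprotein Ahsg 3.76 ± 0.30, whereas 7 of 9 probes of lymphocyte genes measured on all arrays passed the test described below toward spleen, from Cd22 at -1.03 ± 0.25 to a Ptprc probe at -4.33 ± 0.47. The other lymphocyte probes, Cd3e at 0.13 ± 0.09 and another Ptprc probe at 0.03 ± 0.13, did not pass. The median of the measured liver marker probes was 3.95, 4.31 and 3.68 on arrays 1, 2 and 3, and that of the spleen marker probes was -1.43, -1.60 and -1.46. The liver medians rested on 2 probes on arrays 1 and 3. The other hepatocyte markers Ttr, Apoa1 and Apoh were listed at exactly 0 on every array. Alb and Serpina1b were listed at 0 on arrays 1 and 3 and read 6.16 and 4.62 on array 2. An exact 0 was therefore taken as no measurement. In whole-tissue RNA, fewer cells of a type and less RNA per cell cannot be told apart.

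At least 1 probe of every member gene read higher in liver, from 5.22-fold for Slco1a1 to at least 74.9-fold for Slco1b2, whose ratio reached the table's limit on array 2. For Slc10a1 and Slco1a1, another probe read slightly toward spleen. Of the 7 probes measured on all arrays, 5 passed the test toward liver and 2 toward spleen. The test was limma's moderated test of the mean ratio against 0, with Benjamini-Hochberg adjustment over 14122 probes and a threshold of 0.05. By this rule 23.5% of all probes passed toward liver and 26.7% toward spleen. With a 2-fold limit added, the 5 probes still counted toward liver, against 8.85% of all probes, and neither of the 2 counted toward spleen, where 9.13% of all probes did. The other 2 member probes, 1 each of Slco1b2 and Slc10a1, were listed at 0 on array 2. When probes measured on at least 2 arrays were tested as well, both passed toward liver (limma adjusted p = 3.17e-05 and 0.000116), which made 7 of the 9 member probes, against 22.0% of all probes tested.

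**Figure D1:**
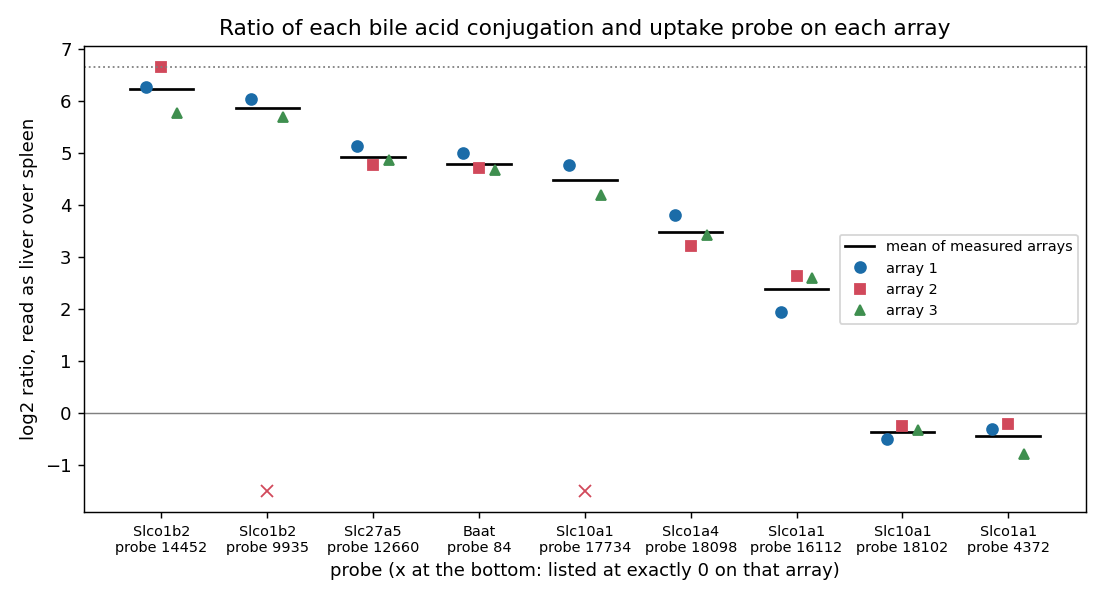
Log2 ratio (vertical axis, read as liver over spleen) of each of the 9 member probes on each of the 3 arrays; the bar is the mean of the arrays that measured it, the dotted line is the table's highest value of 6.64, and a cross marks an array on which the probe was listed at exactly 0. Of these, 7 lie between 1.93 and 6.64 on every array that measured them, and 1 probe each of Slc10a1 and Slco1a1 lies between -0.78 and -0.21.

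The stretches upstream of the annotated start are shown for the 3 uptake carriers whose windows held any of the short motifs searched. They are from RefSeq (GRCm38.p6), 5′ to 3′ on the gene's strand, and cover the 250 bases before the start: Slco1b2 at chr6:141629268-141629517 on the plus strand, Slc10a1 at chr12:80968706-80968955 on the minus strand and Slco1a1 at chr6:141946963-141947212 on the minus strand. Capitals mark matches to GTTAAT (only a part of the site of the hepatocyte factor HNF1) or to TATAAA (the letters of the TATA box). Both strands were searched, and a match is of letters only.
Slco1b2: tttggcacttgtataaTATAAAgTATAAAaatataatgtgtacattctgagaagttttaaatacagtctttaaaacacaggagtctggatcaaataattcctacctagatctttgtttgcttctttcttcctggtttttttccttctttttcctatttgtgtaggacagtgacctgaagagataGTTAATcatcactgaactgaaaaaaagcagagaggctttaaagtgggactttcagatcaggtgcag
Slc10a1: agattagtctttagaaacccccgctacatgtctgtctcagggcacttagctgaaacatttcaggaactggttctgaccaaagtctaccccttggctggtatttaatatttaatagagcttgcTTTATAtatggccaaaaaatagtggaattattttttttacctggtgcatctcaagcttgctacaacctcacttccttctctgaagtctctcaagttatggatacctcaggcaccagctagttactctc
Slco1a1: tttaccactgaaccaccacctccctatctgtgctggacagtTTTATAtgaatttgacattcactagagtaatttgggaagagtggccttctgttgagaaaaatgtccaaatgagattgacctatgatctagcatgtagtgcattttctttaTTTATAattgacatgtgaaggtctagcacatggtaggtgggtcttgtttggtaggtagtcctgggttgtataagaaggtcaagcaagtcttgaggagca

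Slco1b2 held GTTAAT from 66 to 61 bases before the start. TATAAA was found at 2 places in Slco1b2 on the gene's strand. On the opposite strand, read as TTTATA, it was found at 1 place in Slc10a1 and at 2 in Slco1a1. The nearest of these TATAAA matches lay from 99 to 94 bases before the start of Slco1a1. Whether any of them acts as a TATA box was not tested. Of all 32851 promoter windows of 300 bases, 250 before and 50 after a start, 7.10% held GTTAAT and 13.6% held TATAAA, so both are common. The other motifs searched on both strands, the full HNF1 palindrome, CAAAGTCCA (HNF4), the direct and the inverted nuclear receptor repeats spaced by 1 base, TGTTTAC (FOXA) and TTGCGCAA (CEBP), were in none of the 5 windows of members. They were in 0.00913%, 0.475%, 0.0396%, 0.00913%, 3.65% and 0.183% of all windows. GTTAAT is contained in the palindrome. The windows were those of Slco1b2, Slco1a1, Slco1a4 and 2 starts of Slc10a1. The window of Slco1a4 and that of 1 start of Slc10a1 held none of the motifs and are not shown. Slc27a5 and Baat were not among the sequences used here. No link between a motif and a ratio was tested.

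The conjugating enzymes were measured on every array and were among the most liver-biased probes of the table. Slc27a5, the bile acid CoA ligase, read 5.13, 4.76 and 4.86 on arrays 1, 2 and 3. Baat, which transfers the bile acid to the amino acid, read 4.99, 4.70 and 4.68. Both genes lay far above 0 on all arrays, and their ranges overlapped. The mean of Slc27a5 was 4.92 ± 0.19 (SD, n = 3), a 30.2-fold ratio, with a limma 95% interval of 4.66 to 5.17 and an adjusted p of 1.73e-05. The mean of Baat was 4.79 ± 0.18, a 27.7-fold ratio, with an interval of 4.54 to 5.04 and the same adjusted p of 1.73e-05 by limma. Slc27a5 read above Baat on all 3 arrays, by 0.13, 0.06 and 0.18, a difference of 0.13 ± 0.06 that was not tested. They stood at ranks 24 and 29 of the 14122 probes measured on all arrays, counted from the liver side. Among all probes measured on a given array, Slc27a5 ranked 23, 52 and 25 and Baat 31, 53 and 32 on arrays 1, 2 and 3. Their SDs over arrays were near the 0.16 that was the median of all probes.

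Slco1b2, a sodium-independent carrier of bile acids and drugs made mainly in hepatocytes, had the highest ratios among the members on both of its probes. Probe 14452 read 6.27, 6.64 and 5.76 on arrays 1, 2 and 3. The value on array 2 is the highest in the table, equal to 100-fold, where 2 probes on that array stood, so it and the mean are lower bounds. The mean was 6.23 ± 0.44 (SD, n = 3; limma adjusted p = 1.81e-05), and it was 6.02 without array 2. Probe 9935, annotated to another cDNA record of the same gene, read 6.02 on array 1 and 5.69 on array 3 and was listed at 0 on array 2. It ranked 6 on both of these arrays, where probe 14452 ranked 3 and 5. On those arrays probe 9935 was below probe 14452 by 0.25 and 0.07. The mean difference of -0.16 between probes 9935 and 14452 did not pass (limma adjusted p = 0.456, 95% interval -0.55 to 0.23, 2 arrays).

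The probes of Slc10a1, the sodium-taurocholate carrier Ntcp, gave opposite readings. Probe 17734 read 4.77 on array 1 and 4.19 on array 3 and was listed at 0 on array 2. Its mean over these arrays was 4.48 ± 0.41 (SD, n = 2), a 22.3-fold ratio toward liver, and it ranked 40 of the 14867 measured probes on array 1 and 54 of the 15144 on array 3. Probe 18102, annotated to the RefSeq record of the same gene, read -0.50, -0.24 and -0.33 on arrays 1, 2 and 3. It lay slightly toward spleen on all 3 arrays, with a mean of -0.36 ± 0.13 (SD, n = 3; 95% interval -0.58 to -0.13), which passed limma's test at an adjusted p of 0.0221. This call was lost without array 1 (limma adjusted p = 0.114) and without array 3 (limma adjusted p = 0.0616). A call of this size is common in the table, since 65.8% of the 3767 probes past the test toward spleen differed by less than 2-fold.

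On the arrays that measured both, the Slc10a1 probes were 5.27 and 4.52 apart on the log2 scale. Their mean difference of 4.89, or 29.7-fold, was the largest of the 3435 pairs of probes that shared 1 gene symbol and were measured together on at least 2 arrays. It passed limma's test of the difference (adjusted p = 0.00076, 95% interval 4.26 to 5.53), as did 36.7% of those pairs. The median absolute difference of a pair was 0.33. The fit needed at least 2 arrays for a pair, because array 2 had no value for probe 17734. An average over the probes measured on all arrays keeps probe 18102 alone and gives the gene as -0.36.

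Slco1a1, an organic anion carrier that in mouse liver is known to be more abundant in males, also had probes that disagreed, although both are annotated to the same RefSeq record. Probe 16112 read 1.93, 2.63 and 2.59 on arrays 1, 2 and 3, toward liver each time. Its mean was 2.38 ± 0.39 (SD, n = 3), a 5.22-fold ratio with a 95% interval of 1.99 to 2.78 (limma adjusted p = 0.000161). Probe 4372 read -0.30, -0.21 and -0.78. It lay toward spleen on every array, but its mean of -0.43 ± 0.31 only just passed limma's test (adjusted p = 0.0424) and did not pass whichever array was left out, with limma adjusted p-values from 0.0582 to 0.112.

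The ranges of the Slco1a1 probes did not overlap, and the probes were 2.24, 2.84 and 3.37 apart on arrays 1, 2 and 3. The mean difference, probe 4372 minus probe 16112, was -2.82 ± 0.57 (SD, n = 3; 95% interval -3.40 to -2.23; limma adjusted p = 0.000852 over 2902 pairs measured on all arrays). Of those pairs 38.0% passed, and this one ranked 37 by size. Averaging both probes gave 0.98 for the gene, still past the test (limma adjusted p = 0.000817), a value that neither probe showed. The sex of the mice behind the liver RNA is not in the labels.

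**Figure D2:**
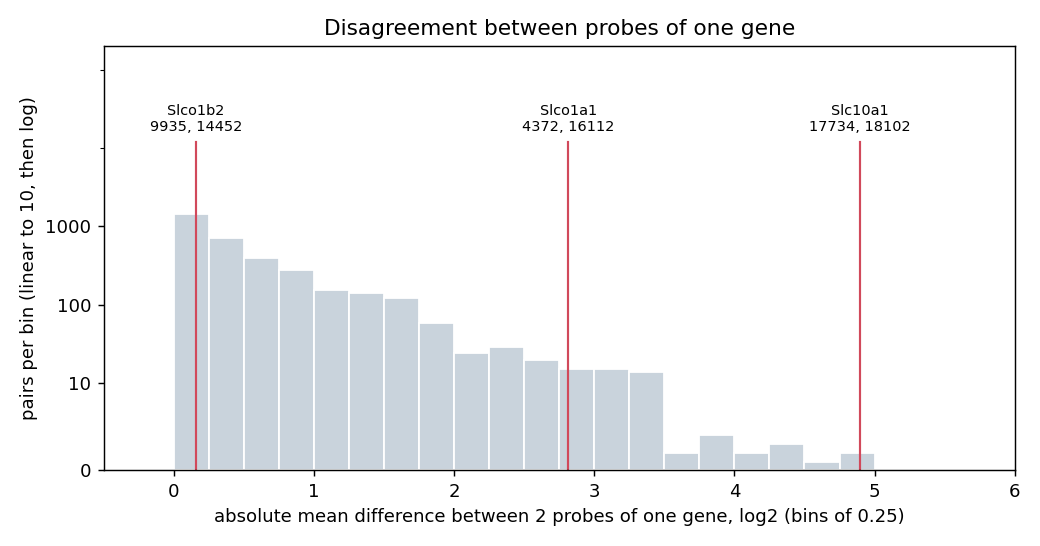
Absolute mean log2 difference (horizontal axis, bins of 0.25) between probes of the same gene symbol, as pairs per bin (vertical axis, linear to 10 and logarithmic above) for 3435 pairs measured together on at least 2 arrays. The 3 member pairs are marked: Slco1b2 at 0.16 lies below the median of 0.33, Slco1a1 at 2.82 is far to the right and Slc10a1 at 4.89 is the farthest pair.

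Slco1a4, a relative of Slco1a1 that carries bile acids, steroid conjugates and cardiac glycosides and is also known from the blood-brain barrier, had a single probe. It read 3.80, 3.20 and 3.41 on arrays 1, 2 and 3, toward liver on all of them. The mean was 3.47 ± 0.30 (SD, n = 3), an 11.1-fold ratio with a 95% interval of 3.14 to 3.80 (limma adjusted p = 2.91e-05). It ranked 154 of 14122, within the top 1.09%, and 121, 260 and 146 among all probes measured on arrays 1, 2 and 3. Among the carriers on chromosome 6, where Slco1b2, Slco1a4 and Slco1a1 all lie, the lowest value of Slco1a4 was above the highest of either Slco1a1 probe and its highest was below the lowest of Slco1b2.

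Ordered by mean ratio, the 9 probes ran Slco1b2 (14452), Slco1b2 (9935), Slc27a5, Baat, Slc10a1 (17734), Slco1a4, Slco1a1 (16112), Slc10a1 (18102) and Slco1a1 (4372). Neighbours whose ranges over arrays overlapped were the pair of Slco1b2 probes, Slc27a5 with Baat, Baat with Slc10a1 (17734), and the low probes of Slc10a1 and Slco1a1. The ranges of the other neighbours did not overlap. This is an order of tissue ratios, not of transcript levels, which a ratio does not give.

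**Figure D3:**
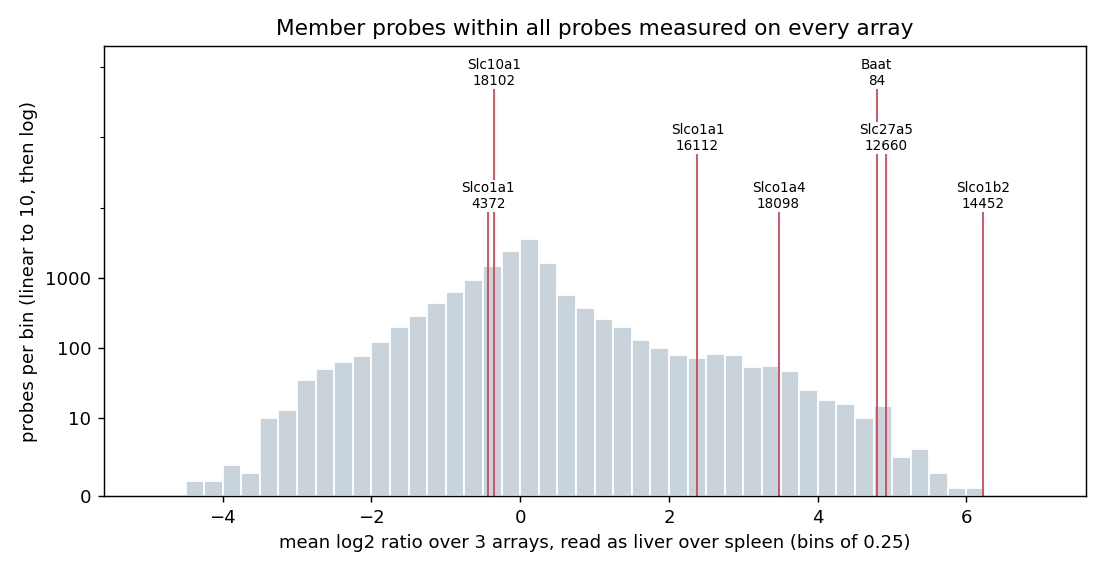
Number of probes (vertical axis, linear to 10 and logarithmic above) by mean log2 ratio over 3 arrays (horizontal axis, bins of 0.25) for the 14122 probes measured on every array, with the 7 member probes among them marked. Slc27a5, Baat and Slco1b2 lie in the far liver tail at 4.92, 4.79 and 6.23, while Slc10a1 probe 18102 and Slco1a1 probe 4372 lie in the bulk at -0.36 and -0.43.

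The non-member probe whose 3 ratios were closest to a member's, by Euclidean distance over the arrays among 12252 probes with 1 gene symbol, was found for each of the 7 probes. Slc27a5 was closest to the peroxisomal fatty acid enzyme Ehhadh, which read 5.10, 4.81 and 4.91, at a distance of 0.08. Baat was closest to arginase (Arg1) at 5.04, 4.70 and 4.83, at a distance of 0.16. Slco1a4 was closest to Kcnmb1 at 0.25 and Slco1a1 probe 16112 to the liver transcription factor Foxa3 at 0.37. Slco1b2 probe 14452 had its nearest probe, mannose-binding lectin (Mbl2), at a distance of 1.03, with few probes as high. The low probes had close neighbours in the crowded middle of the table, Tgtp1 for Slc10a1 at 0.04 and Dnm1 for Slco1a1 at 0.08. With 3 arrays of 1 contrast, this likeness says only that the ratios were similar.

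The enzymes that supply bile acids for conjugation read toward liver in most cases. Of 11 probes of bile acid synthesis measured on all arrays, 9 passed limma's test toward liver and none toward spleen (at an unadjusted p under 0.05, again 0), with a median log2 ratio of 2.57 against 0.02 for all 14122 probes. By the same test, 23.5% of all probes passed toward liver and 26.7% toward spleen. Amacr, the racemase of side-chain shortening, averaged 4.51 ± 0.19 (SD, n = 3), the oxysterol 7α-hydroxylase Cyp7b1 4.13 ± 0.49 and the sterol 12α-hydroxylase Cyp8b1 3.75 ± 0.48 on 1 probe and 2.13 ± 0.45 on the other. The peroxisomal enzymes Hsd17b4 and Acox2 averaged 2.94 ± 0.16 and 2.86 ± 0.79. Cyp7a1, the rate-limiting enzyme of the classical route, was listed at 0 on array 1. It read 0.65 and 0.34 on arrays 2 and 3, far below both conjugating enzymes on the same arrays. Hsd3b7 was listed at 0 on array 2 and read 3.13 and 2.92 on arrays 1 and 3. When probes measured on at least 2 arrays were tested as well, Cyp7a1 and Hsd3b7 also passed toward liver, which made 11 probes. Ch25h at -0.35 ± 0.45 and the brain enzyme Cyp46a1 at -0.03 ± 0.12 did not pass. All probes of Akr1c6 and Scp2 were listed at 0 on every array.

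Carriers that move bile constituents out of the hepatocyte also read toward liver. Of 8 export probes, 7 passed toward liver and 1 toward spleen, with a median of 2.75. The shares over all 14122 probes were 23.5% toward liver and 26.7% toward spleen. The sterol half-transporters Abcg5 and Abcg8 averaged 4.07 ± 0.12 and 3.87 ± 0.46. The bile salt export pump Abcb11, which secretes conjugated bile acids into the canaliculus, had a mean of 3.74 ± 0.25 (limma adjusted p = 1.93e-05). Its range overlapped that of Slco1a4 and lay below those of Slc27a5 and Baat. The basolateral exporter Abcc3 averaged 2.00 ± 0.24. The export gene toward spleen was the drug pump Abcb1a at -0.56 ± 0.29 (limma adjusted p = 0.0163). Its call was lost without array 1 or array 2 and where an exact 0 was kept as a ratio.

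Genes that sense bile acids or control these enzymes were higher in liver in 12 of 14 probes, with none toward spleen by limma (1, Rxra, at an unadjusted p under 0.05) and a median of 1.98. For this list and the next, the shares over all 14122 probes were 23.5% toward liver and 26.7% toward spleen. The bile acid receptor Nr1h4 averaged 2.92 ± 0.20, its target Nr0b2 1.97 ± 0.53 and the FGF co-receptor Klb 2.73 ± 0.10. The receptor Fgfr4 averaged 0.87 ± 0.16 on 1 probe and 0.41 ± 0.27 on the other. Hnf4a at 0.04 ± 0.93 and Rxra at -0.28 ± 0.21 did not pass on the probes measured on all arrays. Of 10 probes of other membrane carriers, the epoxide hydrolase Ephx1 and the scaffold Pdzk1, which anchors Slco1a1 at the membrane, 7 passed limma's test toward liver and none toward spleen (at an unadjusted p under 0.05, again 0). Pdzk1 averaged 2.25 ± 0.16 and 2.17 ± 0.43 on its 2 probes, close to probe 16112 of Slco1a1, and the amino acid carrier Slc38a4 averaged 4.96 ± 0.15.

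Relatives of the members in the same gene families mostly read near 0, as most probes of the table did. Of 7 probes of other Slco carriers, 1 passed toward liver and 1 toward spleen, with a median of 0.04. Of all 14122 probes, 23.5% passed limma's test toward liver and 26.7% toward spleen, with a median of 0.02. Slco1a5, a close relative of Slco1a1 and Slco1a4, read 0.41, -0.23 and -0.24 and did not pass. Slco1a6 was listed at 0 on array 1 and read 0.98 and 0.28 on arrays 2 and 3. Slco1c1, a thyroid hormone carrier of the brain, averaged 2.69 ± 0.30 on 1 probe and 0.26 ± 0.11 on the other, and the probes of Slco3a1 averaged -0.23 ± 0.18 and -1.61 ± 0.12. Probes of near-identical carriers may share signal, which was not resolved here.

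Among the other Slc10a carriers, the intestinal bile acid carrier Slc10a2 averaged 0.44 ± 0.33 and Slc10a6 -0.37 ± 0.24, with limma adjusted p-values of 0.0469 and 0.0428. Slc10a2 did not pass whichever array was left out, with arrays centred or with exact zeros kept, and Slc10a6 did not pass without array 1 or array 2. In the Slc27a family, Slc27a2, a very-long-chain acyl-CoA synthetase of liver, read 4.88, 5.37 and 4.34, a mean of 4.86 ± 0.51 (limma adjusted p = 3.38e-05). Its range enclosed that of Slc27a5. Slc27a1 and Slc27a3 averaged 0.22 ± 0.19 and 0.12 ± 0.24 and did not pass. The acyl-CoA thioesterase Acot1, from the family of Baat, averaged 2.89 ± 0.11 and was the only one of 8 listed relatives with a probe.

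**Figure D4:**
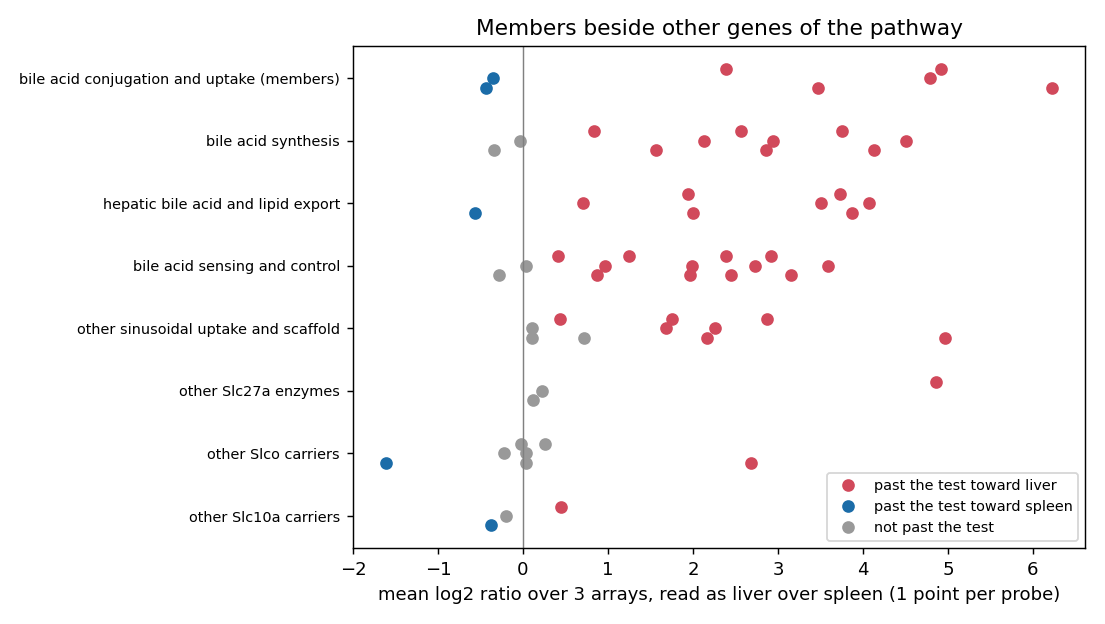
Mean log2 ratio over 3 arrays (horizontal axis, read as liver over spleen) of each probe measured on all arrays, for the members and for 7 lists of related genes, coloured by limma's test. The lists of synthesis, export and control lie mostly right of 0, with medians of 2.57, 2.75 and 1.98, while the other Slco and Slc10a carriers cluster around 0 apart from Slco1c1 and Slco3a1.

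Markers of other liver cells gave mixed readings. For comparison, 23.5% of all probes measured on every array passed toward liver and 26.7% toward spleen. Of 5 biliary probes, 1 passed limma's test toward liver and none toward spleen (1, an Epcam probe, at an unadjusted p under 0.05), with Sox9 at 0.80 ± 0.18, Cftr at 0.18 ± 0.34, Krt19 at -0.02 ± 0.41 and Epcam at -0.17 ± 0.12 and -0.50 ± 0.43. Of 7 Kupffer cell probes, 3 passed toward liver and 3 toward spleen, from Clec4f at 3.18 ± 0.32 to Marco at -2.08 ± 0.25. The other Clec4f probe was at 0.05 ± 0.11. The calls toward spleen were the Marco probes and C1qa at -0.64 ± 0.05. Kupffer cells and macrophages of the spleen were not told apart here. Of 9 probes of liver endothelial and stellate cells, 5 passed toward liver and 1 toward spleen, with a median of 0.68 and a highest value of 2.55 for Colec11. The call toward spleen in that list, Lrat at -0.26 ± 0.07, was lost whichever array was left out. The part of these cells in the members' ratios was not tested.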

How the data were processed

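The deposited table holds 1 log2 ratio of the channels per probe and array, for 16281 probes on 3 arrays. The log base is not stated; the highest value on each array is 6.64, the log2 of 100. How the authors corrected background, balanced the dyes or filtered spots is not given in the sources used here. No channel intensity was used. Each column has a median of 0 with exact zeros included, and medians of 0.02, 0.04 and 0.01 over measured probes. An exact 0 (1414, 1098 and 1137 probes on arrays 1, 2 and 3) was taken as no measurement, which left 14122 probes measured on all arrays.

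Probes were named by the platform annotation, and all 9 member probes matched the RefSeq gene table by Entrez number. The annotation places no probe on a genome build, so probe positions are not given. Ratios were tested per probe against 0 with limma 3.58.1 in R 4.3.3 (intercept only, two-sided, 3.38 prior degrees of freedom, Benjamini-Hochberg over all probes, threshold 0.05). Pairs of probes of 1 symbol were tested the same way on their differences. The limma test per probe was tried on simulated data. The number of arrays limits the precision. Related lists are described by counts and medians only. Named were all member probes, genes of the lists, and the nearest probe to each member. The members, lists and rules were chosen with earlier results of these data known. Alternatives were probes on at least 2 arrays, zeros kept, centring, gene averages, single-symbol probes, robust moderation and leaving out each array.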

Additional observations from a re-analysis of the deposited data

How the results depend on the processing

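The count of 5 member probes past limma's test toward liver was also 5 with arrays centred, exact zeros kept, single-symbol probes or robust moderation. With probes averaged per gene the count is of genes, and 5 of the 6 passed toward liver. Slc10a1 entered that setting only by its probe toward spleen. The count of probes toward liver was 7 with probes on at least 2 arrays, and 5 to 7 when each array was left out. The 2 probes toward spleen fell to 1 with exact zeros kept, to 1 gene with probes averaged per gene, and to 0 to 1 when each array was left out. Slco1a1 probe 4372, at -0.43, became 0.98 where both Slco1a1 probes were averaged. The Slco1a1 probe difference of -2.82 ranged from -3.11 to -2.54 without each array and kept its call. Among the lists, the export count toward spleen of 1 became 0 with exact zeros kept and 0 to 1 when each array was left out. The Slc10a count toward liver of 1 became 0 with zeros kept, 0 with arrays centred and 0 without each array; its count toward spleen of 1 ranged from 0 to 1. The endothelial and stellate count toward spleen of 1 became 0 without each array, and the biliary count toward spleen of 0 ranged from 0 to 1. The causes were not tested beyond the construction of each alternative, such as fewer arrays. No paired analysis was possible because each ratio already pairs the RNAs within an array and there is 1 group of arrays.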

Other observations

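Missing ratios were more frequent at the far liver end of the table, where 5 of the 9 member probes lie. Of 100 probes whose mean over the arrays that measured them was 4 or more, 25 (25%) were listed at exactly 0 on at least 1 array, against 10.4% of the 12921 probes between -1 and 1 and 6.25% of the 528 between 2 and 4. The share was 4.08% of the 710 between 1 and 2 and 8.04% of the 1405 below -1. Probes below -1 were not divided further, so the far spleen end was not compared. The probes at 4 or more were missing 12 times on array 1, 12 times on array 2 and 10 times on array 3. Slc10a1 probe 17734 and Slco1b2 probe 9935 were both missing on array 2. No array gave a ratio for another 617 probes. The cause was not tested.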
